A study of Mus musculus with 12 samples.

Results

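The comparison described here set organoids that acinar cells gave rise to when YAP was switched on for a time (yDucts) against the exocrine acini that are their parental tissue (Acini). It took in 8 of the 12 arrays of the series, the 4 titled yDucts and the 4 titled Acini, each with the letters A to D. Of 45101 probe sets, 34958 carried exactly 1 gene symbol in the platform annotation and stood for 18194 genes, of which 14991 passed the filter on dim probe sets and were tested.

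The series profiled mouse pancreas on Affymetrix expression arrays, 1 array per RNA sample. Acini were isolated from tissue and used fresh, without culture, and no source used here gives the genotype of these mice. yDucts came from acini of mice carrying R26-rtTA and tetO-YAP S127A, alleles through which doxycycline switches on a mutant YAP that escapes inhibition by the Hippo kinases. The organoids were afterwards grown in Matrigel without doxycycline, in an organoid medium with B27, N-acetylcysteine, gastrin, EGF, Noggin, FGF10, nicotinamide and R-Spondin1. The remaining 4 arrays, native ductal organoids (Ducts) in the same medium, entered the fit and one comparison at the end. The R26-rtTA driver is not restricted to acinar cells, and no source used here says whether the 4 yDucts arrays are separate mice, cultures or passages of one line. The p-values therefore measure the spread between arrays, part of which may be technical. Acini came from tissue and yDucts from culture, so cell identity and culture cannot be told apart in this comparison.

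Pancreatic acini are clusters of secretory cells that make digestive enzymes, store them as inactive precursors in zymogen granules and release them when hormones raise calcium in the cell. Ducts are lined by a keratin-rich epithelium that carries the juice away and adds bicarbonate and water. YAP is a coactivator that the Hippo kinase cascade keeps out of the nucleus. When the cascade is off, YAP joins TEAD factors on DNA and switches on genes of growth, cytoskeleton and matrix, among them genes that feed back on the pathway.

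The 2 groups of arrays differed in more than identity. Control probe sets at the 3′ end of the Gapdh transcript read 1.91, 1.33, 1.29 and 1.61 (log2) above those at its 5′ end on Acini A to D and between -0.17 and -0.12 on the yDucts arrays, and the 30th percentile of all probe sets was 3.72 ± 0.06 (SD, n = 4) against 3.20 ± 0.01. Their part in the differences below was not tested. Replicates of yDucts were more alike (r from 0.984 to 0.997 across genes) than those of Acini (0.938 to 0.962), which reads across genes, and genes are not independent replicates. yDucts B stood apart within its group. On it, 422 genes lay more than 1 (log2) from the mean of the other 3 arrays, 84 above and 338 below, against 68 on yDucts A, 70 on yDucts C and 108 on yDucts D. yDucts A and C were close, with 12 genes more than 1 apart where A and D had 96 and C and D 103. With A and C averaged and counted as 1 array, an alternative chosen after the values were seen, 6238 genes were higher and 4535 lower.

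Most of the transcriptome differed. Of the 14991 tested genes, 6534 were higher in yDucts (43.6%) and 4890 lower (32.6%) at an adjusted p under 0.05, and 3567 were not called. At 2-fold or more the counts were 4873 (32.5%) and 2698 (18.0%), and the 2 groups of arrays did not overlap in 10745 genes (71.7%). Gains were more numerous and losses were deeper: 70 genes were higher by 32-fold or more and 99 lower, and past 128-fold there were 9 gains and 43 losses. The balance depended on the scaling. Higher genes made up 57.2% of calls with the deposited values, 44.9% after quantile normalization, 43.0% after cyclic loess and 64.8% after centring each array on its median, and the median difference of all tested genes was 0.24, -0.16, -0.15 and 0.46. A gene list below is therefore given with its median difference less that of all tested genes, for the deposited values and as the range over these 3 scalings. The range does not cover the choice of probe set. With the probe sets of each gene averaged, the median of the EGF and FGF list fell from 1.88 to 0.68. That of the BMP and TGF-beta list fell from 1.71 to 0.77, that of the glutathione list stayed near its value (1.02 and 1.05), and that of all genes was 0.19. Leaving out yDucts B gave 6291 higher and 4585 lower genes.

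**Figure D1:**
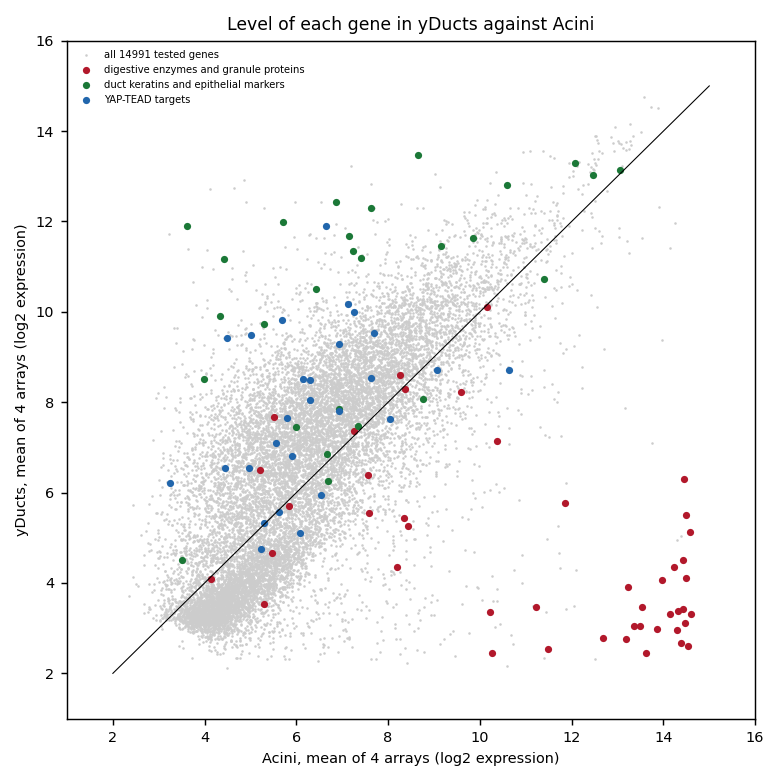
Mean log2 expression of each tested gene over the 4 Acini arrays (horizontal axis) and the 4 yDucts arrays (vertical axis), with the line of equal level. Digestive enzymes and granule proteins (red) lie at the lower right, most duct keratins and epithelial markers (green) and YAP-TEAD targets (blue) lie above the line, and all other genes are grey.

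Differences are given as yDucts minus Acini on the log2 scale with the standard error of limma's model, levels as the mean ± SD of 4 arrays, and each p as limma's two-sided p with Benjamini-Hochberg adjustment over all 14991 genes. Where the mean of one group did not reach the 30th percentile of its own arrays, the fold is written as at least that size. In RNA from whole tissue or culture, fewer cells of a type and less RNA per cell cannot be told apart.

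The doxycycline-driven gene came first. The Yap1 probe set read 8.47, 8.30, 8.55 and 8.19 on Acini A to D and 9.70, 9.59, 9.73 and 9.67 on yDucts A to D. All yDucts arrays were above all Acini arrays, with a difference of 1.29 ± 0.14 (2.45-fold, adjusted p = 2.63e-06), although after cyclic loess it was 0.17 and did not pass (adjusted p = 0.304, range over all alternatives 6.72e-07 to 0.304). Doxycycline had been withdrawn before these organoids were profiled, and whether the probe set detects the transgene is not known, so this level does not check the induction.

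Digestive enzymes were among the deepest losses. The 11 tested proteases were all lower, with a median difference of -9.92 (-10.16 against all genes, -10.83 to -9.47 under the other scalings), and the 8 tested lipases, amylase and ribonucleases likewise, with a median of -10.88 (-11.12, range -11.65 to -10.33). Over all genes 32.6% were lower. Some members of both lists passed the filter only through the Acini arrays, and for them it favoured a lower call. Without Acini A, 8 proteases and 7 members of the second list were tested, all lower. Cpa1, the protease carboxypeptidase A1, read 14.60, 14.57, 14.60 and 14.60 on the Acini arrays and 3.22, 3.25, 3.33 and 3.42 on the yDucts arrays. Its yDucts values lay at the edge of the background, and the difference was -11.29 ± 0.13 as measured (adjusted p = 1.28e-15). The Acini values were close to the highest of any probe set on those arrays, 14.73 to 14.79, and spread far less than the median SD of 0.361 among Acini genes. Whether such bright probe sets were saturated was not tested, so folds of the enzymes are given as measured and not as exact ratios of RNA. Ctrl, a chymotrypsin-like protease, was 1335-fold lower and Ctrb1, chymotrypsinogen B, 969-fold. Cel, the bile salt-dependent lipase, was 2059-fold lower and Clps, the colipase that anchors pancreatic lipase to fat, 1824-fold. Not all enzymes reached background. Cela1, the elastase, read 6.43, 5.95, 6.31 and 6.50 on yDucts A to D, which is above the 30th percentile of those arrays and 284-fold under the 14.45 ± 0.03 of Acini. Klk1b5, a kallikrein with near-identical relatives that its probe set may also read, went from 12.50 ± 0.14 to 2.33 ± 0.14, at least 634-fold lower.

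Genes of the zymogen granule and of its traffic were mostly lower. Of 26 tested members of the granule list, 18 were lower (69.2%), 2 higher (7.69%) and 6 not called, against 32.6% and 43.6% of all genes. The median was -3.04 (-3.29 against all genes, range -3.57 to -3.29). Without Acini A, 23 members were tested and 15 were lower. Those that dropped out had passed the filter only through the Acini arrays, which favoured a lower call. Gp2, the major glycoprotein of the granule membrane, went from 13.36 ± 0.11 to 3.06 ± 0.13, at least 1142-fold lower. Spink1, which inhibits trypsin inside the cell, read 13.36, 13.61, 13.55 and 13.58 on Acini A to D and 3.59, 3.64, 3.37 and 3.24 on yDucts A to D, 1071-fold lower. Sycn, syncollin of the granule, was 967-fold lower. Cuzd1 and Serpini2, both secreted by acinar cells, were at least 1219.9-fold and at least 1019-fold lower. Snap23 and Stx2, fusion proteins of the plasma membrane, were the list's higher members, at 2.14 ± 0.33 and 1.28 ± 0.22.

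The factors that maintain acinar identity were lower with it. Of 13 tested acinar transcription factors, 11 were lower (84.6%), 1 higher (7.69%) and 1 not called, against 32.6% and 43.6% of all genes. The median was -2.58 (-2.82 against all genes, range -2.89 to -2.82). Ptf1a, which specifies acinar cells and drives their enzyme genes, read 10.15, 10.25, 10.44 and 10.08 on Acini A to D and 3.45, 3.25, 3.06 and 3.50 on yDucts A to D. The groups lay far apart, and Ptf1a was 121-fold lower (-6.92 ± 0.15, adjusted p = 7.84e-13). Rbpjl, its acinar partner, was 65.2-fold lower, although another Rbpjl probe set differed by -1.39. Bhlha15, also called Mist1, which organises the secretory apparatus, went from 10.75 ± 0.21 to 4.29 ± 0.22, 87.9-fold lower, with another probe set at -1.40. Nr5a2, a nuclear receptor of acinar genes, fell by less, from 9.78 ± 0.11 to 6.97 ± 0.17 (-2.81 ± 0.15, adjusted p = 8.93e-09), and remained above the 30th percentile. A pair of GATA factors moved in opposite directions. Gata4 was 5.97-fold lower, while Gata6 read 5.84, 7.05, 7.39 and 6.19 on the Acini arrays and 8.62, 8.74, 8.56 and 8.73 on the yDucts arrays, a difference of 2.04 ± 0.28, although another Gata6 probe set differed by -0.58.

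Receptors and calcium handling changed member by member. In this list of 16 tested genes, 6 were higher and 7 lower (median -0.06, turning to 0.16 with median centring). These are 37.5% and 43.8%, against 43.6% and 32.6% of all genes. Cckar, the receptor through which cholecystokinin triggers enzyme release, read 11.13, 11.48, 11.65 and 11.35 on Acini A to D. On yDucts A to D it read 2.38, 2.29, 2.42 and 2.29, below the 30th percentile of every array, at least 296-fold lower (adjusted p = 1.24e-14). Among calcium pumps and channels, the ubiquitous pump Atp2a2 and the store-operated channel Orai1 were higher (1.55 ± 0.19 and 1.92 ± 0.35) and Atp2a3 was lower (-1.56 ± 0.17). The inositol trisphosphate receptor Itpr3 was higher by 2.69 ± 0.19.

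The endoplasmic reticulum did not follow the enzymes as a block. Of 39 tested genes of protein entry and folding, 11 were higher (28.2%), 15 lower (38.5%) and 13 not called (median -0.18), against 43.6% higher and 32.6% lower of all genes. The scaling set the balance: 7 and 24 after quantile normalization, 5 and 29 after cyclic loess, and 14 and 8 with median centring. The chaperone Hspa5, also called BiP, was at 12.41 ± 0.23 in Acini and 12.20 ± 0.19 in yDucts, a difference of -0.22 ± 0.29 (adjusted p = 0.496), and it was lower after cyclic loess and on its probe set with the widest range (-1.16 and -1.38, adjusted p over all alternatives 6.78e-07 to 0.994). Paralogues of one enzyme moved apart. Ero1b, the endoplasmic reticulum oxidase of secretory cells, read 11.90, 11.60, 12.08 and 11.47 on Acini A to D and 7.30, 7.35, 7.12 and 7.22 on yDucts A to D, 22.9-fold lower, whereas its widely expressed paralogue Ero1a went from 7.22 ± 0.28 to 9.20 ± 0.49, 3.94-fold higher. Both differences exceeded the spread of the arrays (adjusted p = 2.08e-08 and 3.13e-04), and that of Ero1a did not pass after cyclic loess (0.86, adjusted p over all alternatives 1.26e-06 to 0.0631). Pdia2, a disulfide isomerase of the pancreas, was at least 1635-fold lower, while Pdia3 was higher by 2.68 ± 0.33 on its chosen probe set and read -0.15 on another. The signal peptidase subunits Sec11c and Spcs2 differed by -1.85 ± 0.22 and 1.58 ± 0.25, and on other probe sets by -0.345 and 0.705.

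The ER stress element, CCAAT and CCACG 9 bases apart on either strand, is the site that Xbp1 and Atf6 are known to use, and it occurred in 7 of the 35 promoters found for this list (20.0%) and in 0.137% of the promoters of 27025 genes in RefSeq's GRCm38.p6 table, each covering 250 bases before to 50 after the start. The promoter of Ero1b, the list's deepest loss, is printed with the parts of its match in capitals (chr13:12565633-12565932, plus strand). Hspa5, which was not called, also holds the element, as do Calr, Hsp90b1, Canx, Pdia6 and Dnajc3, and these are not printed. A match is a description of these letters and not a measured site.
Ero1b: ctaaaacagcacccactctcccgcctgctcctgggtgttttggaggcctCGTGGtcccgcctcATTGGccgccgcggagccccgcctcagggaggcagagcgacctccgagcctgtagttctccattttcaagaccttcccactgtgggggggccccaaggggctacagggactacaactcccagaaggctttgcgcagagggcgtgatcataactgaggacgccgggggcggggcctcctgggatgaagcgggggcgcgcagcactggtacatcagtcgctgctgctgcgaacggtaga

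In the unfolded protein response list, 12 of 23 tested members were lower, 3 higher and 8 not called (52.2% lower against 32.6% of all genes, median -0.87, -1.11 against all genes, range -1.81 to -1.11). Derl3, a channel component that returns misfolded proteins to the cytosol, read 10.29, 10.50, 10.73 and 10.59 on Acini A to D and 6.21, 6.05, 6.22 and 5.90 on yDucts A to D, 21.6-fold lower (adjusted p = 1.29e-06). Edem1 and Sel1l, which recognise and pass on misfolded glycoproteins, were 11.7-fold and 6.54-fold lower. Chac1, a target of the stress factor Atf4, was 8.34-fold lower, and Ppp1r15a, which restores translation after stress, 4.54-fold. Atf6b, a membrane-bound factor of the response, was higher by 1.74 ± 0.36.

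Amino acid and creatine metabolism, which in acini feeds protein synthesis, held some of the deepest losses outside the granule. The list counted 21 lower (52.5%), 10 higher (25.0%) and 9 genes not called among 40 tested, against 32.6% and 43.6% of all genes. The median was -0.67 (-0.91 against all genes, range -1.16 to -0.91). Without Acini A, 36 were tested, 16 lower and 11 higher (median -0.27). Those that dropped out had passed the filter only through the Acini arrays, which favoured a lower call. Gatm, which makes the creatine precursor guanidinoacetate, read 11.66, 11.89, 12.09 and 11.91 on Acini A to D and 3.56, 2.99, 3.65 and 3.47 on yDucts A to D. No array of one group came near the other, and Gatm was 355-fold lower (-8.47 ± 0.27, adjusted p = 3.91e-11). Gamt, which completes creatine, was 21.3-fold lower. In the methionine cycle, Gnmt, a glycine methyltransferase, was 78.9-fold lower and Mat1a, which makes S-adenosylmethionine, went from 8.26 ± 0.35 to 2.76 ± 0.093, at least 33.4-fold. The amino acid transporters Slc38a5 and Slc7a8 were lower by at least 186-fold and at least 33.4-fold. Opposed to these, the serine synthesis genes Psat1 and Psph were higher (1.60 ± 0.23 and 1.76 ± 0.31), as were Oat, which handles ornithine (2.51 ± 0.25), and the mitochondrial folate enzyme Mthfd1l (2.38 ± 0.34), although Psph did not pass after cyclic loess.

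Secreted REG lectins and trefoil factors were lower in part. Of 30 tested members of that list, which also holds mucins and stomach and gut markers, 12 were lower, 6 higher and 12 not called. The shares, 40.0% lower and 20.0% higher, compare with 32.6% and 43.6% of all genes. The median was -0.47 (-0.72 against all genes, range -0.72 to -0.39). Reg2 went from 14.39 ± 0.07 to 5.04 ± 0.11 and Tff2, a trefoil peptide that protects mucosa, from 13.75 ± 0.14 to 7.10 ± 0.39, 653-fold and 100.3-fold lower. REG genes are similar in sequence, so probe sets may read several members. On the higher side stood Ctse, a protease of gastric epithelium, at 4.32 ± 0.66, the intestinal transcription factor Cdx2 at 2.63 ± 0.27, the microvillus protein Vil1 at 3.98 ± 0.43 and Anxa10, an annexin of stomach, at 3.50 ± 1.17, a call lost without yDucts A. Vnn1, a pantetheinase, read 3.64, 3.88, 4.87 and 4.33 on Acini A to D and 10.77, 12.14, 10.73 and 10.17 on yDucts A to D, 109-fold higher.

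**Figure D2:**
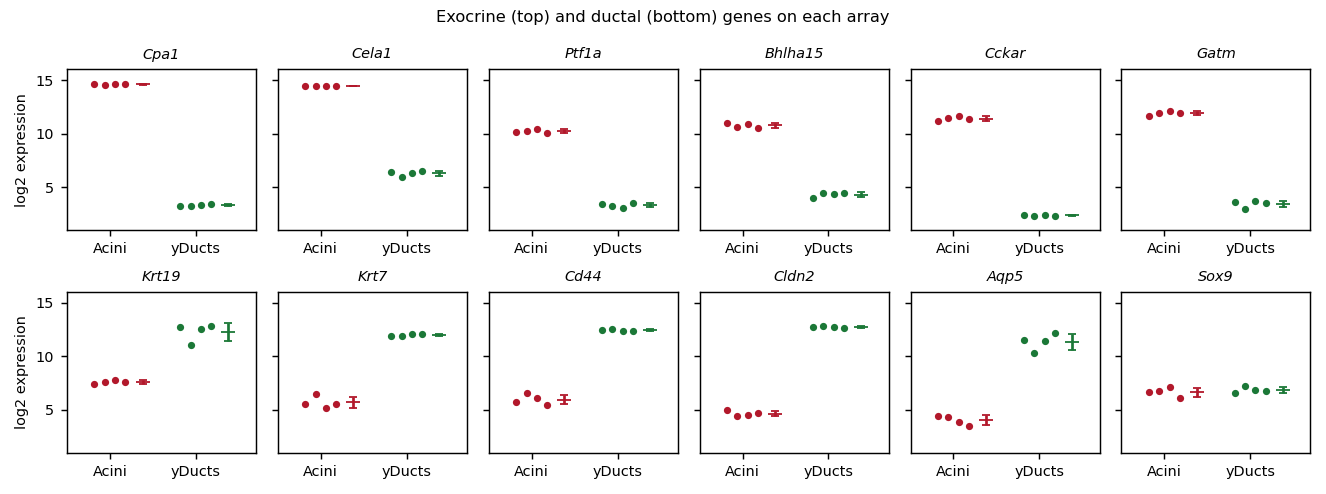
Log2 expression of 12 genes on each Acini (red) and yDucts (green) array, replicates A to D from left to right, with the mean and SD of the 4 arrays at the right of each set. The exocrine genes of the top row lie between 10 and 15 in Acini and below 7 in yDucts, the first 5 genes of the bottom row run the other way, and Sox9 overlaps.

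Duct markers were higher. Of 27 tested duct keratins and epithelial markers, 20 were higher (74.1%), 1 lower (3.7%) and 6 not called, against 43.6% and 32.6% of all genes. The median was 2.31 (2.06 above all genes, range 1.72 to 2.06). Krt7, a keratin of simple ducts, read 5.53, 6.48, 5.22 and 5.57 on Acini A to D and 11.90, 11.87, 12.06 and 12.08 on yDucts A to D. Its groups were separate on every array, 77.6-fold apart (adjusted p = 1.62e-10). Krt19, the keratin by which pancreatic ducts are stained, was 25.4-fold higher, though yDucts B lay below the other yDucts arrays (12.73, 11.03, 12.57 and 12.85). Onecut2, a transcription factor of developing ducts, was 47.7-fold higher. The surface proteins Tspan8 and Msln were at least 267-fold and 108-fold higher, and Anxa2 and Anxa3, annexins that bind membranes, 28.5-fold and 47.7-fold. Other probe sets differed by less, by 0.67 for Anxa2 and by 1.585 to 4.785 for Tspan8. Muc1, a mucin of the apical membrane of acini and ducts alike, was the member that went against the rest (-0.67 ± 0.19, not passing with median centring). Sox9, a transcription factor that marks ducts, read 6.72, 6.76, 7.12 and 6.11 on Acini A to D and 6.60, 7.20, 6.86 and 6.76 on yDucts A to D. These overlapped, and the difference of 0.18 ± 0.36 did not pass the test (adjusted p = 0.658). On the Sox9 probe set with the widest range over the arrays it was 1.49 and passed (adjusted p over all alternatives 0.00722 to 0.979). Cftr, the chloride channel of duct cells, was at 3.51 ± 0.45 and 4.51 ± 0.55 (adjusted p = 0.233, and 0.0101 in a fit of the 8 arrays alone, range over all alternatives 0.0101 to 0.432).

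Pancreatic progenitor factors were called in shares near those of all genes. Among 23 tested, 12 were higher and 7 lower (52.2% and 30.4%, against 43.6% and 32.6%, median 1.26, 1.02 above all genes, range 0.66 to 1.01). Cd44, a hyaluronan receptor of progenitor and activated epithelia, read 5.73, 6.54, 6.09 and 5.51 on Acini A to D and 12.47, 12.55, 12.37 and 12.37 on yDucts A to D, 88.8-fold higher. Pdx1, the pancreas master regulator, went from 5.61 ± 0.56 to 6.86 ± 0.075 (1.26 ± 0.25, adjusted p = 4.63e-04), a call lost after cyclic loess (0.51, adjusted p over all alternatives 1.21e-05 to 0.0778). On another Pdx1 probe set the difference was only 0.07. Sox4, a regulator of epithelial progenitors, was higher by 4.06 ± 0.27, although 1 of its other probe sets read -0.29. Prox1 and Isl1, factors of the early pancreas and of islets, were lower (-0.88 ± 0.30 and -0.97 ± 0.26, neither passing after quantile normalization or cyclic loess), and the forkhead factor Foxa3 was lower at -3.16 ± 0.27.

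Ion and water transport genes were higher and lower in shares near those of all genes. The list counted 14 higher and 12 lower of 33 tested (42.4% and 36.4%, against 43.6% and 32.6%), with a median of 0.29 that turned to -0.15 after quantile normalization and -0.16 after cyclic loess. Aquaporins, the water channels, went in both directions. Aqp12, which is specific to acinar cells, read 11.52, 11.68, 11.78 and 11.80 on Acini A to D and 5.32, 5.16, 5.30 and 5.25 on yDucts A to D, 86.7-fold lower. Aqp8, of the acinar apical membrane, was 19.5-fold lower. Aqp5, a channel of secretory and ductal epithelia, read 4.48, 4.35, 3.85 and 3.50 on Acini A to D and 11.55, 10.34, 11.41 and 12.20 on yDucts A to D, 161-fold higher. Genes of bicarbonate transport also went in both directions. Slc26a6, an apical anion exchanger, was 9.87-fold lower, while Slc4a4, which loads bicarbonate into duct cells, and the carbonic anhydrase Car2 were 65.1-fold and 21.4-fold higher. The potassium channel subunits Kcnn4 and Kcne3 were higher by 4.62 ± 0.36 and 5.67 ± 0.76.

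Cell junction genes were higher in number with the deposited values (21 higher, 7 lower of 38, median 0.99). These are 55.3% and 18.4%, against 43.6% and 32.6% of all genes. The balance levelled to 12 and 11 after quantile normalization and to 12 and 11 after cyclic loess, with a median of -0.01. Cldn2, the claudin of cation-leaky tight junctions, read 4.96, 4.43, 4.51 and 4.68 on Acini A to D and 12.71, 12.83, 12.75 and 12.68 on yDucts A to D. This was 274-fold higher, with no overlap between groups. Cldn6, a claudin of early epithelia, and Cdh2, N-cadherin, were higher by 3.63 ± 0.75 and 4.09 ± 0.65. In the opposite direction, Cldn10 was lower by at least 14.1-fold and Gjb2, a gap junction connexin of acini, by 23.6-fold, from 8.95 ± 0.40 to 4.38 ± 0.50. Cldn5, which is also a member of the endothelial list, was lower at -0.85 ± 0.22, which did not pass after cyclic loess.

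Most genes of the basement membrane and its receptors were higher (61.3%, against 43.6% of all genes). Of 31 tested genes of integrins, laminins and other matrix of the basement membrane, 19 were higher and 7 lower (median 1.15, 0.90 above all genes, range 0.69 to 0.90). The integrin subunit Itgav was higher by 3.08 ± 0.26, the matrix proteoglycan Agrn by 3.12 ± 0.25, Tinagl1 of the basement membrane by 3.24 ± 0.34 and the collagen chain Col4a5 by 3.44 ± 0.60. Other probe sets differed by 0.57 for Agrn, by 1.34 for Col4a5 and by 0.21 to 3.52 for Itgav. The collagen chains Col4a1 and Col4a2 and the nidogen Nid2 were lower (-2.34 ± 0.35, -1.76 ± 0.31 and -1.75 ± 0.22). Col7a1, of anchoring fibrils, was lower at -4.13 ± 0.23.

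The cytoskeleton rose broadly. Of 40 tested genes of actin, myosin and tropomyosin, 31 were higher (77.5%) and 5 lower (12.5%), against 43.6% and 32.6% of all genes. The median was 1.72 (1.48 above all genes, range 0.99 to 1.48). S100a6, a calcium-binding partner of the cytoskeleton, read 7.13, 7.36, 6.22 and 8.07 on Acini A to D and 13.20, 13.00, 13.17 and 13.51 on yDucts A to D, 65.1-fold higher. Pls3, which bundles actin, and Myh10, a non-muscle myosin, were 12.2-fold and 9.56-fold higher. Lcp1, Acta2, Tagln and Krt80 were among the lower members, and Acta2 and Tagln, smooth muscle genes at -1.57 ± 0.14 and -1.48 ± 0.19, are also members of the stromal list.

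YAP-TEAD targets were mostly higher in organoids that had been without doxycycline. Of 27 tested, 19 were higher, 4 lower and 4 not called (median 1.76, 1.52 above all genes, range 0.90 to 1.51), against 43.6% higher and 32.6% lower over all genes. After cyclic loess, 14 were higher and 5 lower. Ccn2, also called Ctgf, a matrix signal protein and one of the best-known targets, read 6.69, 6.78, 7.18 and 5.97 on Acini A to D and 12.00, 12.08, 12.22 and 11.29 on yDucts A to D. Every yDucts array was above every Acini array, by 5.24 ± 0.35 in the mean (37.9-fold, adjusted p = 4.76e-08). Ccn1, also called Cyr61, its close relative, read 9.22, 9.17, 9.28 and 8.57 on Acini A to D and 8.48, 9.04, 8.90 and 8.40 on yDucts A to D. Those values overlapped, and the difference of -0.35 ± 0.58 did not pass the test (adjusted p = 0.585, range over all alternatives 0.0417 to 0.835, lowest after cyclic loess at -1.48).

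The TEAD core was looked for in the promoters, from 250 bases before to 50 after the start. GGAATG, searched on both strands, occurred in 9 of 21 promoters found for the YAP-TEAD list (42.9%) and in 16.6% of the promoters of all 27025 genes in the table. Ccn1, which was not called, was among the 9. The promoters of Ankrd1, Ajuba and Amotl2 are printed from RefSeq (GRCm38.p6) in the direction of the gene, with matches in capitals. Ankrd1 and Ajuba hold the most matches, 2 each. Amotl2, which has a role in the pathway itself, was picked by hand. Lats2 and Ptpn14, also of the Hippo pathway, hold 1 match as Amotl2 does and are not printed. Ankrd1 lies at chr19:36119795-36120094 on the minus strand, Ajuba at chr14:54577612-54577911 on the minus strand and Amotl2 at chr9:102717554-102717853 on the plus strand.
Ankrd1: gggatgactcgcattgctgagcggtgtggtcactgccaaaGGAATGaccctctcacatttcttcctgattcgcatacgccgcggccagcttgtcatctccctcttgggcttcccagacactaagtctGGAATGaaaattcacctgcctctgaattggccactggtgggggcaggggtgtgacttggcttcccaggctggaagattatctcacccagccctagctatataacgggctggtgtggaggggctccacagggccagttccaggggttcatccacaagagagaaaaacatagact
Ajuba: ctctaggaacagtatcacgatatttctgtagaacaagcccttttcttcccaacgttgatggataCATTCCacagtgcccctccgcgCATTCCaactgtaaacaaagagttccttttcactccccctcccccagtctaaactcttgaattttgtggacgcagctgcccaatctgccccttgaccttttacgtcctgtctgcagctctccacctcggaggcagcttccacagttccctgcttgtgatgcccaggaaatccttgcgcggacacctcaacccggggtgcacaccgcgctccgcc
Amotl2: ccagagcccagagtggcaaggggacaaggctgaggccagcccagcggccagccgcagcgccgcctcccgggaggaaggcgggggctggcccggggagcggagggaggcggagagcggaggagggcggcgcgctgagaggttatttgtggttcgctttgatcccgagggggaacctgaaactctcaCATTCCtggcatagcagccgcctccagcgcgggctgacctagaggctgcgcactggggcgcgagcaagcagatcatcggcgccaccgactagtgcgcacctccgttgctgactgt

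Ankrd1, an ankyrin repeat protein of muscle and of YAP-active cells, holds 2 matches in the printed window and read 7.43, 7.17, 7.16 and 6.72 on Acini A to D and 9.83, 10.71, 10.29 and 9.87 on yDucts A to D, 8.31-fold higher (adjusted p = 3.15e-06). Ajuba, a LIM protein that restrains the LATS kinases, also holds 2 matches and read 4.12, 5.45, 5.26 and 5.19 on Acini A to D and 9.21, 9.68, 9.46 and 9.64 on yDucts A to D, 22.5-fold higher (adjusted p = 5.31e-08). Amotl2, an angiomotin that binds YAP, holds 1 match and went from 7.26 ± 0.28 to 10.01 ± 0.23 (2.75 ± 0.28, adjusted p = 1.77e-06). In all 3 genes the yDucts arrays lay above the Acini arrays. The receptor tyrosine kinase Axl and the membrane repair protein Myof were higher too, by 4.94 ± 0.60 and 4.14 ± 0.28. Against the majority, Gadd45b, a stress-induced regulator, was lower at -1.92 ± 0.16, and Nt5e, a surface nucleotidase, by -0.97 ± 0.23.

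Most components of the Hippo pathway were themselves higher. Among 34 tested, 22 were higher (64.7%), 3 lower (8.82%) and 9 not called, against 43.6% and 32.6% of all genes. The median was 1.45 (1.20 above all genes, range 0.73 to 1.20), and after cyclic loess the counts were 17 and 9. Stk4, the kinase MST1 at the head of the cascade, read 5.68, 6.49, 6.53 and 6.20 on Acini A to D and 9.31, 9.62, 9.42 and 9.31 on yDucts A to D, 9.13-fold higher. Taok1, which activates it, was higher by 3.52 ± 0.38. Other probe sets differed by 0.55 and 2.54 for Stk4 and by 0.78 to 2.24 for Taok1. Fat1, a giant cadherin upstream of the cascade, and Wtip, a relative of Ajuba, were 29.4-fold and 17.6-fold higher. Amot, which tethers YAP at junctions, was higher by 5.05 ± 0.28 on its chosen probe set, while others differed by -0.95 and 0.34. Wwtr1, also called TAZ, the paralogue of YAP, read 6.95, 7.20, 6.93 and 6.56 on Acini A to D and 9.23, 9.20, 9.23 and 9.12 on yDucts A to D, 4.87-fold higher (adjusted p = 3.98e-08). Its other probe sets differed by 0.72 and 1.26. Of the DNA-binding partners, Tead1 was higher (1.83 ± 0.22, with another probe set at -0.32) and Tead2 lower (-2.02 ± 0.15, from 9.66 ± 0.07 to 7.64 ± 0.15). Dchs1, the cadherin partner of FAT proteins, was lower at -1.02 ± 0.17.

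**Figure D3:**
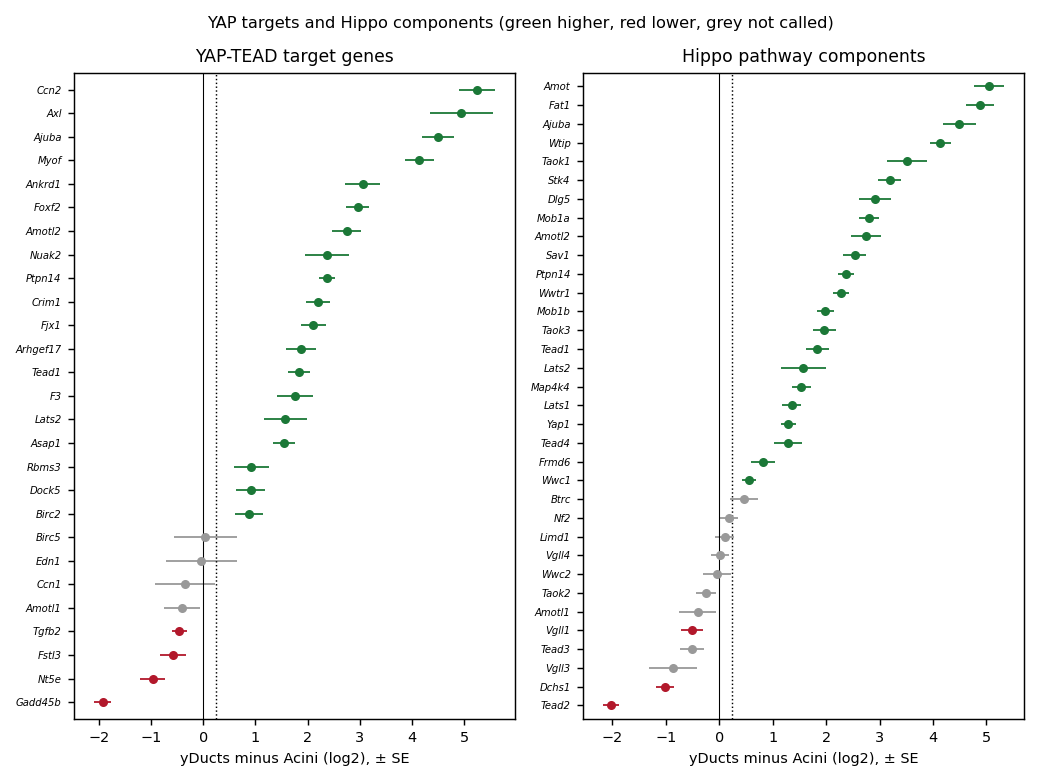
Difference between yDucts and Acini (log2, horizontal axis) with its standard error for each tested member of the YAP-TEAD target list (left) and of the Hippo list (right), coloured by the test at an adjusted p under 0.05. The dotted line marks the median of all tested genes, 0.24, and 19 of 27 targets and 22 of 34 components are higher.

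The organoid medium supplies R-Spondin1, EGF, FGF10 and Noggin, and genes of the matching pathways were set out in turn. In the Wnt list, 19 of 33 tested genes were higher and 10 lower (57.6% and 30.3%, against 43.6% and 32.6% of all genes). The lower share was thus near that of all genes. The median was 1.42 (1.17 above all genes, range 0.88 to 1.17). Lgr5, an R-spondin receptor of epithelial stem cells, read 4.39, 3.94, 3.76 and 4.11 on Acini A to D and 6.43, 5.79, 7.85 and 7.17 on yDucts A to D. The difference of 2.76 ± 0.72 (adjusted p = 0.00355) held for this probe set, and another read -0.80. Wls, which exports Wnt ligands, was higher by 4.20 ± 0.28, the receptor Fzd1 by 2.97 ± 0.31 and the transcription factor Tcf7l2 by 3.75 ± 0.18. Other probe sets differed by 0.17 for Fzd1 and by 0.80 to 2.60 for Tcf7l2. Feedback targets were divided. Sp5 was higher by 2.95 ± 0.29, Notum and Nkd1 were lower at -0.89 ± 0.25 and -0.89 ± 0.13, and Axin2, the standard readout of the pathway, was at 5.54 ± 0.08 in Acini and 5.14 ± 0.40 in yDucts (adjusted p = 0.161) and lower after quantile normalization (-0.74, adjusted p over all alternatives 0.0135 to 0.524). Lef1 and the ligands Wnt5a and Wnt11 were lower (-1.59 ± 0.28, -1.22 ± 0.15 and -1.53 ± 0.22).

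EGF family ligands went in opposite directions. Egf itself, which acini express, read 8.50, 8.77, 9.24 and 8.23 on Acini A to D and 3.34, 3.01, 3.07 and 3.29 on yDucts A to D, at least 43.3-fold lower (adjusted p = 1.16e-10). Ereg, epiregulin, read 4.63, 3.23, 3.78 and 5.08 on Acini A to D and 9.13, 8.94, 9.13 and 9.18 on yDucts A to D, 30.2-fold higher (adjusted p = 1.35e-06). Neither gene had an overlap between groups. Feedback inhibitors that ERK switches on were higher in Dusp6 (4.49 ± 0.32) and Dusp4 (4.78 ± 0.47) and lower in Dusp5 (-1.22 ± 0.15) and Errfi1 (-1.77 ± 0.36). Etv5, a transcription factor downstream of FGF receptors, was higher by 4.65 ± 0.20, and by 1.89 and 2.31 on other probe sets. The receptor Egfr gave no single answer: its brightest probe set over the 12 arrays was higher by 4.05 ± 0.36, and others ranged from -1.53 to 4.05. Fgfr1 and Fgfr4 were lower (-1.79 ± 0.24 and -1.03 ± 0.20). Over the list, 19 of 32 tested genes were higher and 8 lower (59.4% and 25.0%, against 43.6% and 32.6% of all genes). The median was 1.88 (1.63 above all genes, range 0.95 to 1.63).

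Id1, Id2 and Id3, known targets of BMP signalling, were higher in organoids whose medium holds Noggin, a BMP antagonist. Id1, a BMP-induced inhibitor of differentiation, read 5.38, 6.72, 5.65 and 6.06 on Acini A to D and 11.80, 11.09, 11.77 and 11.94 on yDucts A to D, 51.9-fold higher (adjusted p = 2.42e-08). Id2 and Id3 were 25.6-fold and 9.87-fold higher, with no overlap between arrays. The ligand Bmp4 read 5.05, 5.42, 4.71 and 4.84 on Acini A to D and 9.79, 9.09, 9.83 and 10.22 on yDucts A to D, 26.5-fold higher, whereas Bmp7 was lower at -2.27 ± 0.31. The TGF-beta receptors Tgfbr2 and Tgfbr3 went apart, at 3.75 ± 0.16 and -1.98 ± 0.27, with another Tgfbr2 probe set at 1.19. In the BMP and TGF-beta list, which holds ligands and receptors as well as targets, 22 of 34 tested genes were higher and 6 lower. The shares were 64.7% and 17.6%, against 43.6% and 32.6% of all genes. The median was 1.71 (1.47 above all genes, range 0.97 to 1.47).

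Notch genes divided about evenly, with 11 higher and 10 lower of 24 tested (median -0.10, turning to 0.12 with median centring). The shares, 45.8% and 41.7%, compare with 43.6% and 32.6% of all genes, so the higher share was near the background. Hes1, the classical Notch target, read 7.00, 6.78, 7.00 and 7.09 on Acini A to D and 9.34, 9.13, 9.56 and 9.54 on yDucts A to D, 5.37-fold higher. The ligand Dll1, the nuclear effector Rbpj and the protease Adam17 were higher (2.66 ± 0.39, 2.75 ± 0.23 and 3.03 ± 0.33). Hey1, Heyl, Notch3, Notch4 and Dll4, several of which are known from vessels, were lower at -1.46 ± 0.25, -1.34 ± 0.16, -0.93 ± 0.27, -1.98 ± 0.21 and -0.99 ± 0.23, of which Dll4 did not pass after quantile normalization and cyclic loess. Rfng, a glycosyltransferase that tunes Notch, was lower at -2.52 ± 0.17, and by less on another probe set (-0.48).

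Retinoid synthesis enzymes went in both directions. Aldh1a1 and Aldh1a7 were lower (-2.85 ± 0.47 and -5.77 ± 0.80). Aldh1a3 was higher, from 3.43 ± 0.38 to 6.07 ± 0.68, although its other probe sets differed by 0.085 and 1.02. Rdh10, which makes the retinaldehyde these enzymes use, read 5.64, 6.19, 6.26 and 7.14 on Acini A to D and 11.74, 11.93, 11.61 and 11.65 on yDucts A to D, 43.0-fold higher. Over the list, 6 of 19 tested genes were higher and 5 lower (31.6% and 26.3%, against 43.6% and 32.6% of all genes, median 0.23).

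Most genes of DNA replication and mitosis had their lowest yDucts value on yDucts B. Of 41 tested, 19 were higher, 3 lower and 19 not called (median 0.76). The shares, 46.3% and 7.32%, compare with 43.6% and 32.6% over all genes, so the higher share was near the background. Without yDucts B the counts were 25 and 2 and the median was 1.12. On yDucts B the list lay -1.25 from the mean of the other yDucts arrays in the median, 22 members were lower there by more than 1, and 35 were at their yDucts minimum. Mki67, the proliferation marker Ki-67, read 7.89, 7.22, 7.54 and 6.31 on Acini A to D and 8.12, 3.71, 7.89 and 7.14 on yDucts A to D. It did not pass the test (adjusted p = 0.607). Top2a and Rrm2, a topoisomerase and a subunit of ribonucleotide reductase named after their values were seen, read 8.02, 4.91, 8.26 and 7.53 and 9.04, 4.11, 9.19 and 8.65 on yDucts A to D, lowest on B in both. The helicase subunits that license origins were higher with B included. Mcm4 read 5.27, 5.48, 5.89 and 4.54 on Acini A to D and 8.95, 8.41, 9.01 and 8.90 on yDucts A to D, 11.5-fold higher (adjusted p = 6.27e-08). Mcm6 and Mcm7 were 8.18-fold and 9.29-fold higher and the clamp Pcna 5.20-fold. Foxm1, a transcription factor of mitotic genes, was lower at -4.38 ± 0.15, from 10.05 ± 0.20 to 5.67 ± 0.061, and by less on other probe sets (-1.27 and -0.98).

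**Figure D4:**
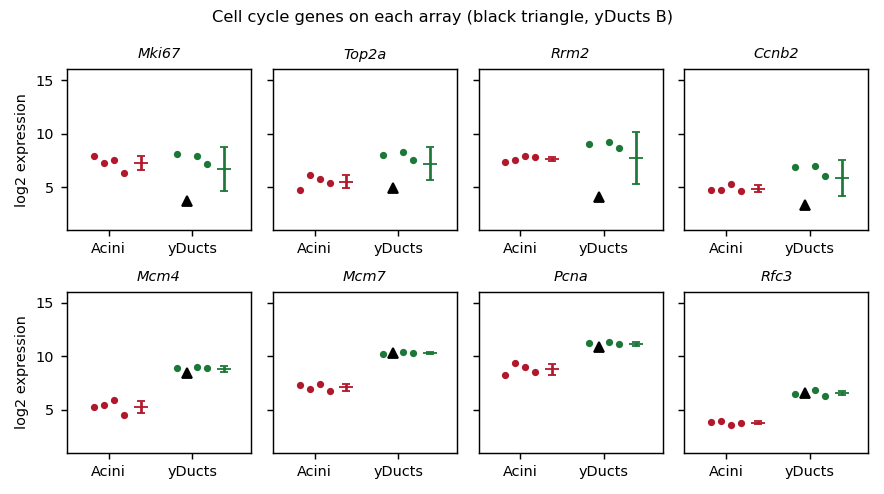
Log2 expression of 8 cell cycle genes on each Acini (red) and yDucts (green) array, replicates A to D from left to right, with yDucts B as a black triangle and the mean and SD at the right of each set. yDucts B is the lowest yDucts array for Mki67 (3.71), Top2a (4.91) and Rrm2 (4.11).

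Regulators of entry into the cycle were higher on both sides. Of 24 tested cyclins D, Myc family members and inhibitors, 19 were higher (79.2%) and 2 lower (8.33%), against 43.6% and 32.6% of all genes. The median was 1.83 (1.59 above all genes, range 0.94 to 1.59). Ccnd1, the cyclin that starts the cycle, read 7.69, 7.88, 7.76 and 7.38 on Acini A to D and 12.05, 11.78, 12.11 and 12.20 on yDucts A to D, 20.5-fold higher. Its partner kinase Cdk4 and the growth regulator Myc were higher by 3.04 ± 0.26 and 1.84 ± 0.21. The inhibitor Cdkn2b read 3.90, 5.85, 6.03 and 3.85 on Acini A to D and 9.50, 10.19, 9.39 and 9.53 on yDucts A to D, 26.8-fold higher. Cdkn2a, the neighbouring inhibitor gene, read 5.12, 2.86, 2.75 and 2.87 on Acini A to D and 6.32, 7.12, 6.51 and 6.93 on yDucts A to D, with Acini A far above the other Acini arrays, and the p53 antagonist Mdm2 was higher by 3.28 ± 0.23. None of these had overlapping groups.

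Central metabolism differed as well. In glycolysis and the pentose phosphate pathway, 17 of 28 tested genes were higher (60.7%) and 1 lower (3.57%), against 43.6% and 32.6% of all genes. The median was 2.02 (1.78 above all genes, range 1.29 to 1.77). Pkm, the pyruvate kinase of proliferating tissues, read 6.57, 7.66, 7.27 and 7.88 on Acini A to D and 11.36, 11.08, 11.50 and 11.78 on yDucts A to D, 17.0-fold higher. The lactate exporter Slc16a1, the aldolase Aldoc and the lactate dehydrogenase Ldha were higher by 3.75 ± 0.22, 3.71 ± 0.59 and 2.93 ± 0.32. Another Aldoc probe set differed by 0.39. In cholesterol and fatty acid synthesis, 27 of 32 were higher (84.4%, against 43.6% of all genes) and 0 lower, and after cyclic loess 16 and 5. The median was 1.88 (1.64 above all genes, range 0.91 to 1.64). Msmo1 and Cyp51, enzymes that demethylate lanosterol on the way to cholesterol, read 10.18, 9.42, 10.45 and 10.32 and 9.27, 8.32, 9.48 and 9.57 on yDucts A to D and 5.01, 5.93, 6.29 and 4.80 and 5.56, 4.61, 4.98 and 4.44 on Acini A to D. Both were lowest on yDucts B, as were 31 of the 32 members, and both lay above every Acini array (24.0-fold and 19.2-fold). Another Msmo1 probe set differed by only 0.065. Without yDucts B, 27 members were higher. Me1, which supplies NADPH to fatty acid synthesis, and the desaturase Scd2 were 36.4-fold and 17.1-fold higher.

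Genes of glutathione and the oxidative stress response were higher in 22 of 35 (62.9%) and lower in 3 (8.57%), against 43.6% and 32.6% of all genes. The median was 1.02 (0.78 above all genes, range 0.19 to 0.78). Gsta4, a glutathione transferase that clears lipid aldehydes, read 4.24, 4.71, 5.66 and 4.79 on Acini A to D and 13.25, 12.52, 12.90 and 13.01 on yDucts A to D, 269-fold higher. Gsta3 and the carbonyl reductase Cbr3 were 41.3-fold and 29.5-fold higher. The master regulator Nfe2l2, also called Nrf2, was 12.1-fold higher, while another Nfe2l2 probe set differed by 0.35. Gpx3, the secreted glutathione peroxidase, was lower at -3.48 ± 0.39. The core of the antioxidant response element, TGACNNNGC on either strand, occurred in 10 of 33 promoters found for the list (30.3%) and in 14.0% of those of all genes.

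Housekeeping complexes differed in how far they depended on the scaling. After cyclic loess, 19 of 40 proteasome subunits were higher and 8 lower. With the deposited values 33 were higher (82.5%) and 1 lower (2.5%), against 43.6% and 32.6% of all genes (median 1.28). The exception was Psmb10, a catalytic subunit of the immunoproteasome, which went from 10.63 ± 0.059 to 7.44 ± 0.085 (-3.19 ± 0.16), while another, Psmb8, was higher (from 4.88 ± 0.65 to 6.88 ± 0.13). Cytosolic ribosomal proteins were higher in 36 of 43 (83.7%, median 0.79), yet 9 were higher and 10 lower after cyclic loess (median -0.03). Respiratory chain genes were higher in 38 and lower in 13 of 77 (49.4% and 16.9%, against 43.6% and 32.6% of all genes, median 0.40). The direction turned after quantile normalization (14 and 32, median -0.18) and cyclic loess (10 and 45, -0.54). Genes that charge tRNAs were higher in 14 and lower in 2 of 21 (66.7% and 9.52%, median 0.59), which also turned (3 and 7, 2 and 11). Wars, the tryptophanyl-tRNA synthetase, was lower at -2.62 ± 0.27.

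Defence genes held some of the largest gains of the comparison. Lcn2, the iron-scavenging lipocalin, read 3.59, 4.31, 3.87 and 4.68 on Acini A to D and 12.85, 13.47, 13.06 and 11.48 on yDucts A to D. Its groups were far apart, at 389-fold (adjusted p = 3.12e-05). Cxcl5, a chemokine that attracts neutrophils, read 3.29, 3.68, 3.53 and 2.38 on Acini A to D and 11.73, 12.50, 11.86 and 10.79 on yDucts A to D, at least 256-fold higher (adjusted p = 3.13e-06). Cd14, which presents bacterial lipopolysaccharide, and Lbp, which carries it, were 49.4-fold and 90.8-fold higher. The chemokine Ccl20 and Il1rn, which blocks the interleukin 1 receptor, were 55.4-fold and 35.3-fold higher. Il6, the cytokine, and its receptor subunit Il6ra were lower, by -4.43 ± 0.25 and -3.08 ± 0.19, with another Il6ra probe set at -0.51. Saa3, an acute phase protein named after its values were seen, read 9.27, 13.53, 10.13 and 7.48 on yDucts A to D, highest on B, and 4.91, 5.73, 6.20 and 5.73 on Acini A to D. In the whole list 17 of 44 tested genes were higher, 11 lower and 16 not called (median 0.60, turning to -0.06 after cyclic loess), a share below the 43.6% of all genes.

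Interferon-response and antigen-presentation genes were lower in 15 and higher in 4 of 32 (46.9% and 12.5%, against 32.6% and 43.6% of all genes). Their median was -0.64 (-0.88 against all genes, range -0.88 to -0.78). The deepest was H2-Aa, a class II chain of antigen-presenting cells, at least 30.7-fold lower, beside its partners H2-Eb1, H2-Ab1 and Cd74 (-3.47 ± 0.18, -3.06 ± 0.22 and -3.16 ± 0.21). Cd74 is also a member of the immune cell list. The interferon-induced Rsad2 and Ifit1 were lower at -3.79 ± 0.38 and -3.31 ± 0.53, and B2m, the common chain of class I molecules, was higher by 1.55 ± 0.37, a call lost after quantile normalization and cyclic loess.

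Markers of other pancreatic cell types were present on the Acini arrays and lower in yDucts. Of 17 tested islet markers 16 were lower (94.1%), of 23 immune markers 20 (87.0%) and of 28 stromal markers 25 (89.3%). Of 22 endothelial markers 19 were lower (86.4%) and of 9 markers of blood, fat and nerve 6 (66.7%), against 32.6% of all genes. Another 11 islet markers were not tested. Some members passed the filter only through the Acini arrays: without Acini A, 12 islet, 18 immune, 24 stromal and 16 endothelial markers were tested. For such members the filter favoured a lower call, so the counts are description only. The mean level of the stromal list ran from 6.94 to 7.47 over the Acini arrays and from 4.52 to 4.62 over the yDucts arrays, and that of the endothelial list from 5.80 to 6.31 and from 4.20 to 4.41. For immune markers the ranges were 5.68 to 6.09 and 3.77 to 3.79, for islet markers 6.44 to 6.73 and 4.27 to 4.40, and for blood, fat and nerve 6.61 to 6.86 and 4.43 to 4.58. Their part in the other differences was not tested. Ins2, insulin, read 11.81, 11.69, 12.04 and 11.39 on Acini A to D and 5.00, 4.32, 4.52 and 4.82 on yDucts A to D. Col3a1, a collagen of fibroblasts, went from 9.45 ± 0.41 to 2.39 ± 0.11, Ptprc, the leukocyte antigen CD45, from 5.18 ± 0.25 to 2.58 ± 0.21, Pecam1, of endothelium, from 4.78 ± 0.72 to 2.62 ± 0.18, and Fabp4, of fat, from 10.67 ± 0.29 to 2.85 ± 0.18. In yDucts the last 4 lay below the 30th percentile, where a probe set gives only an upper limit.

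A few members of these lists were higher. Sox17, a transcription factor of endoderm and of endothelium, read 4.08, 5.35, 5.04 and 5.07 on Acini A to D and 11.26, 9.91, 11.22 and 10.91 on yDucts A to D, 61.4-fold higher (adjusted p = 8.29e-09). Every yDucts array was above every Acini array, and yDucts B was the lowest of its group. The intermediate filament Vim, known from mesenchyme, went from 8.77 ± 0.52 to 10.50 ± 0.67 (1.73 ± 0.33, adjusted p = 3.49e-04), a call lost after cyclic loess (0.70, adjusted p over all alternatives 1.66e-05 to 0.0717). The matrix proteins Fn1 and Timp3 were higher by 2.85 ± 0.72 and 2.94 ± 0.42 while the collagens beside them fell, with Fn1 no longer passing after cyclic loess. On another Fn1 probe set the difference was 0.60.

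Immediate early genes, which cells switch on within minutes of a stimulus, were higher on the Acini arrays. Of 34 tested members, heat shock genes included, 18 were lower in yDucts (52.9%) and 10 higher (29.4%), against 32.6% and 43.6% of all genes. The median was -0.62 (-0.86 against all genes, range -1.40 to -0.86). Fosb, a subunit of the AP-1 factor, read 9.68, 9.95, 10.17 and 9.22 on Acini A to D and 2.82, 3.12, 3.01 and 2.61 on yDucts A to D, at least 94.4-fold lower. Atf3, Zfp36 and Jun, induced by stress, were lower at -5.65 ± 0.51, -4.15 ± 0.19 and -3.47 ± 0.47. The mitochondrial chaperones Hspd1 and Hspe1 were higher (2.25 ± 0.18 and 1.93 ± 0.18). The clock genes Nr1d1 and Per1 were lower at -3.21 ± 0.17 and -1.82 ± 0.16. Of 19 tested clock genes 9 were lower and 6 higher (47.4% and 31.6%, against 32.6% and 43.6% of all genes, median -0.51). No source used here gives the hour at which samples were taken. Of 17 imprinted growth genes, 5 were higher and 3 lower (29.4% and 17.6%, below the 43.6% and 32.6% of all genes). Peg3, a paternally expressed zinc finger gene, was at 1.93 ± 0.34.

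**Figure D5:**
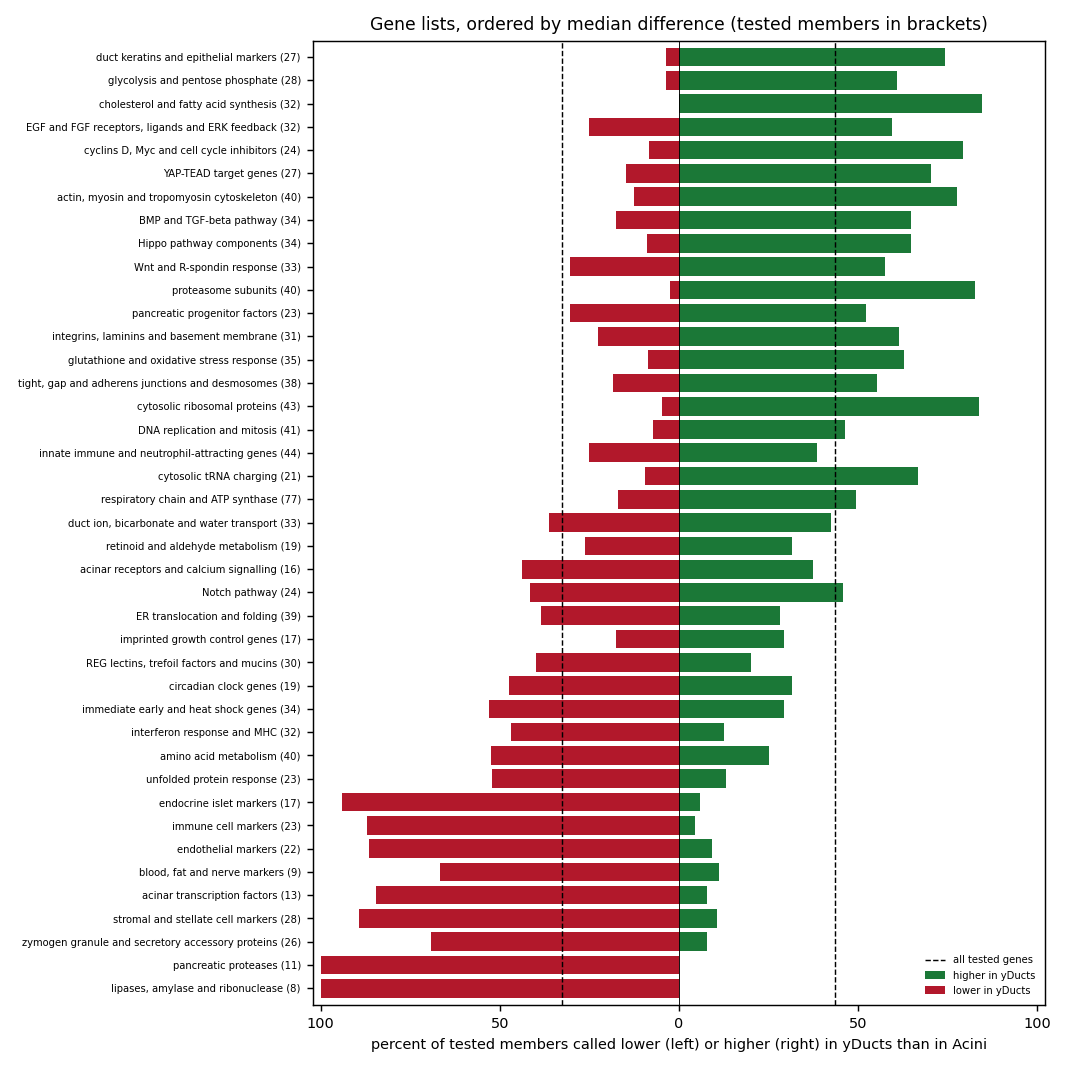
Percent of the tested members of each gene list called higher (green, to the right) or lower (red, to the left) in yDucts than in Acini, lists ordered by median difference from top to bottom. Dashed lines mark the shares over all 14991 tested genes, 43.6% higher and 32.6% lower.

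Against the native ductal organoids, which share the medium and lack the acinar history, far fewer genes of yDucts stood apart: 2.15% of the 14991 tested genes were higher in yDucts than in Ducts and 0.987% lower. Of the genes that differed from Acini, 336 (2.94%) also differed between the organoids. Both comparisons use the yDucts arrays. Among acinar genes, Nr5a2 was higher in yDucts than in Ducts by 3.74 ± 0.15 (adjusted p = 1.92e-08), reading 7.20, 6.99, 6.89 and 6.80 on yDucts A to D and 2.99, 3.06, 3.34 and 3.53 on Ducts A to D. Gamt was higher by 2.02 ± 0.31 and Nr0b2, a corepressor of nuclear receptors, by 0.81 ± 0.17. Of the 11 proteases and 8 lipases, amylase and ribonucleases, 0 and 1 differed, too few members to set against the shares of all genes.

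Vim gave the widest gap of the genes named here. It read 10.96, 9.51, 10.78 and 10.76 on yDucts A to D and 4.07, 3.41, 3.55 and 3.46 on Ducts A to D, a difference of 6.88 ± 0.33 (adjusted p = 6.06e-08). Other gains in yDucts over Ducts were Foxf2, a forkhead factor of mesenchyme and a YAP target, at 3.15 ± 0.22, Peg3 at 2.77 ± 0.34, Sox17 at 1.87 ± 0.32, Dll1 at 1.94 ± 0.39, Cldn2 at 1.25 ± 0.30 and Cdx2 at 1.31 ± 0.27. The forkhead factor Foxa3 and the Wnt ligand Wnt7a were lower in yDucts, at -1.50 ± 0.27 and -1.28 ± 0.29. Among the lists, 0 of 27 duct markers, 0 of 34 Hippo components and 1 of 27 YAP-TEAD targets differed between the organoids. Over all tested genes, 2.15% were higher in yDucts than in Ducts and 0.987% lower. The counts are near those shares and do not set these lists apart from other genes.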

How the data were processed

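RNA of mouse pancreatic acini and organoids had been hybridised to Affymetrix mouse expression arrays, 1 array per sample. The deposited values are log2 expression per probe set, made by the authors with RMA (background correction, normalization and summary of probes) per the submitters' processing notes, and no source used here says whether all 12 arrays were treated together. Groups came from the titles. In the annotation of the platform, 9211 probe sets carried no gene symbol and 932 several. These were left out, as were 64 control probe sets. A gene was represented by its 1-symbol probe set with the highest mean over the 12 arrays, and entered the test if 4 or more arrays read it above their own 30th percentile. Among called genes named in the text, 101 had another probe set that passed the same filter, and for 8 of these one went in the opposite direction. The size of a difference often varied between probe sets of one gene.

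A group-means model was fitted to all 12 arrays with limma 3.58.1 in R 4.3.3 (9 residual and 3.72 prior degrees of freedom), with two-sided p-values, Benjamini-Hochberg adjustment over all tested genes and a threshold of 0.05. The procedure was tested on simulated data with 200 changed genes. The number of arrays limits the precision. Where a group was below the 30th percentile, the fold was computed against that level.

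The comparison, its members and 42 gene lists were chosen with earlier results of these data known. The lists hold 1266 distinct genes, of which 1139 were tested, 72 had no 1-symbol probe set and 55 fell below the filter. Of those tested, 883 were called. Genes named are the defining members of each list, up to 6 members with the largest called difference, called members against their list's majority, the study's markers, and the 15 largest increases and 15 largest decreases among called genes without overlap between groups. Amotl2, Rrm2, Saa3, Tead1 and Top2a lie outside this rule and were named after their values were seen. Promoter windows were read from a RefSeq table of GRCm38.p6.

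Alternatives were quantile, cyclic loess and median scaling, no filter and a 50th percentile filter, other choices of probe set, the 8 arrays alone, array weights, the letter as a block, leaving out each array and, chosen after seeing the data, averaging yDucts A and C. The labels do not say whether a letter pairs the samples. Deviations of Acini and yDucts arrays of one letter correlated at -0.00785, -0.0177, 0.00375 and 0.0513 across genes, which cannot show whether a mouse or day was shared.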

Additional observations from a re-analysis of the deposited data

Results flagged for a closer look

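In groups of 4 arrays, the lone highest or lowest value was examined for a gap from the other 3 arrays wide by Dixon's test, which chance gives in about 1 in 20 groups. Of 456 groups of values from genes named above, 26 had such a gap, 12 of them on yDucts B. The values are log2 expression.

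On yDucts B, several epithelial and metabolic genes were low against the other yDucts arrays. Rrm2, of nucleotide synthesis, read 4.11 where the others read 8.65 to 9.19. Krt19 read 11.03 (others 12.57 to 12.85), Vim 9.51 (10.76 to 10.96) and Col4a1 6.43 (7.66 to 7.84). Ldha read 11.01 (12.00 to 12.15), Ero1a 8.47 (9.41 to 9.47), Mthfd1l 7.66 (8.16 to 8.26), Aldh1a1 5.77 (6.95 to 7.12) and Pdx1 6.75 (6.89 to 6.91). Higher on yDucts B were Amot at 10.38 (9.20 to 9.39), Sel1l at 9.41 (9.08 to 9.12) and Tead1 at 9.74 (9.43 to 9.48).

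On other yDucts arrays, Axin2 read 4.55 on A (5.31 to 5.37) and Klk1b5 2.11 on A (2.37 to 2.41), Per1 read 6.45 on C (6.19 to 6.23), and Notum read 5.26 (5.05 to 5.08) and Onecut2 9.71 (9.98 to 9.99) on D.

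On the Acini arrays, Cdkn2a stood out at 5.12 on A (2.75 to 2.87). Fgfr4 read 6.41 (5.50 to 5.63) and Psat1 8.07 (8.80 to 8.94) on A, and Ccn1 8.57 (9.17 to 9.28) on D. Acini C was high for Gamt at 10.66 (10.34 to 10.35), Per1 at 8.53 (7.88 to 7.98), Tead2 at 9.77 (9.62 to 9.64) and Cel at 14.50 (14.39 to 14.40). Cpa1 read 14.57 on B and 14.60 on the others, a gap that counts only because the others are almost equal.

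Both kinds of organoid were set against the same Acini arrays, and their difference from those arrays differed between yDucts and Ducts in 16 of the genes named (yDucts minus Ducts, limma's adjusted p under 0.05). It was higher in yDucts for Vim (6.88), Nr5a2 (3.74), Foxf2 (3.15), Peg3 (2.77), Gamt (2.02), Dll1 (1.94), Sox17 (1.87), Fgfr1 (1.50), Cdx2 (1.31), Cldn2 (1.25), Etv5 (1.01), Psmb10 (0.89) and Nr0b2 (0.81). It was lower for Foxa3 (-1.50), Wnt7a (-1.28) and Krt80 (-0.73).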

How the results depend on the processing

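The direction of the balance between higher and lower genes rested on the scaling and the filter. Higher genes numbered 6534 with the deposited values and 4062 after cyclic loess, and those higher by at least 2-fold 4873, 3058 after quantile normalization and 2576 after cyclic loess. Lower genes numbered 4890, and 2938 with a filter at the 50th percentile, which tests fewer dim genes. Higher genes made up 47.7% of calls with no filter and 68.7% with that stricter filter. Leaving out each of the 8 arrays in turn gave 6203 to 6526 higher and 4484 to 4607 lower genes. With the letter as a replicate block, which rests on no shared mouse or day in the labels, the counts were 6472 and 4794, and at 2-fold 4874 and 2702.

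Of 228 genes named, 206 kept their direction and their side of the threshold under every alternative that gave a value, and 22 did not. A gene bright only in Acini drops below the filter when an Acini array is left out, so 13 named genes had no value there. Egfr reversed in a fit of the 8 arrays alone (-1.20, adjusted p over all its alternatives 3.24e-07 to 0.00355), because another probe set is then the brightest. Cyclic loess ended the calls of 12 named genes, Yap1 among them, and quantile normalization those of 5. Averaging the probe sets of a gene ended the calls of Lgr5, Wnt7a and Top2a. Top2a also lost its call under the block (1.67, adjusted p over all its alternatives 0.00181 to 0.29) and without any single array other than Acini B and yDucts B. Among lists whose counts are not given by scaling above, cyclic loess gave 21 lower members of the unfolded protein response, 12 higher of the glutathione list and 3 higher imprinted genes, quantile normalization 20 higher proteasome subunits and 17 higher genes of cholesterol and fatty acid synthesis, median centring 5 lower clock genes, and the 50th percentile filter 9 lower islet markers. The cause of these shifts was not tested.

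The arrays give relative levels per probe set, with values below the 30th percentile as upper limits. The 3′ to 5′ ratio of control transcripts, the isolation from tissue and the culture each go with the groups and cannot be told apart from them.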
